A study of Rattus norvegicus with 12 samples.

Results

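Sox9 (ENSRNOG00000002607) encodes the SOX9 transcription factor and was 1 of the 32754 rat genes with counts in these data. It was selected by its gene identifier and name, not by a measured value, and it was among the 7378 genes that had enough reads to be tested. SOX9 is a DNA-binding protein of the HMG box family and the master regulator of the chondrocyte, the cell of cartilage. Together with its partners SOX5 and SOX6 it switches on the genes of cartilage collagens, of aggrecan and of other matrix proteins, and loss of a single SOX9 copy causes a severe skeletal malformation syndrome in humans. Fibroblast growth factors (FGFs) act on growth plate chondrocytes mainly through the receptor FGFR3, and in cultured chondrocytes FGF signals have been linked to Sox9 expression through the MAP kinase pathway.

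The cells were RCS, chondrocytes of a cartilage tumour of the rat (chondrosarcoma) that grow as a line, and the comparison asked how FGF18, a ligand of these receptors, changes transcripts with and without FGFR3 and FGFR4. There were 4 groups of 3 libraries, named as biological replicates in the labels. WT RCS vehicle and FGFR3/4KO RCS vehicle were left without FGF18, and WT RCS FGF18 and FGFR3/4KO RCS FGF18 were kept with FGF18 overnight, at 50 µg/ml as the labels state it. The unit is ng/ml in the paper's text. The medium held 5% adult bovine serum in all groups. The FGFR3/4KO cells were 1 clone made with CRISPR/Cas9, so a difference between genotypes cannot be told apart from a difference between this clone and the parental line. The targeted genes Fgfr3 and Fgfr4 were not analysed here by name. Separate cultures are not described further, so the tests measure the spread between these libraries.

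Transcripts were read near their 3′ ends by QuantSeq, and a gene's level is given as CPM, counts per 1e+06 reads on genes after TMM scaling between libraries. WT RCS libraries held 669585 to 947730 gene reads (vehicle) and 846957 to 1196647 (FGF18). FGFR3/4KO RCS libraries held 373964 to 925006 (vehicle) and 840149 to 1140741 (FGF18). FGFR3/4KO RCS vehicle replicate 2 was the shallowest library of the 12. Sox9 itself had between 531 reads, in that library, and 2319 reads, in FGFR3/4KO RCS FGF18 replicate 2. At these numbers counting alone gave Sox9 a coefficient of variation of 2.29 to 3.19% within a group, and the replicates varied by 4.05 to 14.1%.

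Sox9 was among the most abundant transcripts of these cells. A read stands for a transcript in 3′ sequencing, whatever the transcript's length, and on this CPM scale Sox9 ranked between 45 and 94 among the 7378 tested genes, within the top 1.27% in each of the 12 libraries. Sox9 in WT RCS vehicle was at 1401, 1406 and 1510 CPM in replicates 1 to 3. Its WT RCS FGF18 values were 1374, 1262 and 1438 CPM. The WT libraries therefore lay close together, and the vehicle and FGF18 ranges of Sox9 overlapped. Sox9 in FGFR3/4KO RCS vehicle was at 1866, 1504 and 1986 CPM. Its FGFR3/4KO RCS FGF18 values were 1896, 2055 and 1967 CPM. Of the 6 FGFR3/4KO libraries, 5 had more Sox9 than any of the 6 WT libraries, and the exception was the shallow vehicle replicate 2, which lay just below the highest WT library. In bulk RNA, fewer cells with a transcript and less of the transcript per cell cannot be told apart, and this holds for every level given here.

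**Figure D1:**
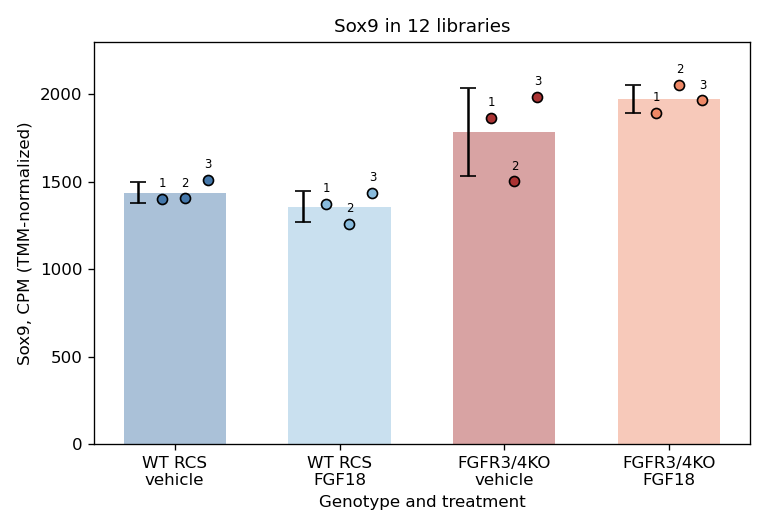
Sox9 in CPM (TMM-normalized, y axis) in the 4 groups (x axis). Points are the 12 libraries with their replicate numbers, bars are group means and error bars are SD (n = 3). The 3 FGFR3/4KO FGF18 libraries lie between 1896 and 2055 CPM, above the 6 WT libraries, whose highest value is 1510 CPM.

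The group means of Sox9 were 1358 ± 89.2 CPM in WT RCS FGF18, 1439 ± 61.4 CPM in WT RCS vehicle, 1785 ± 251 CPM in FGFR3/4KO RCS vehicle and 1973 ± 79.9 CPM in FGFR3/4KO RCS FGF18 (SD, n = 3 each). In this order of rising levels, each neighbouring pair of groups had overlapping libraries. The groups whose Sox9 libraries did not overlap were WT RCS FGF18 against either FGFR3/4KO group, and WT RCS vehicle against FGFR3/4KO RCS FGF18. Between the genotypes under FGF18, 20.5% of the tested genes separated in the same direction. For the other pairs no such share was computed. The widest group was FGFR3/4KO RCS vehicle, where the 95% counting interval of replicate 2, 1379 to 1638 CPM, lay below those of replicates 1 and 3, 1763 to 1974 and 1895 to 2079 CPM. The same interval contained the Sox9 levels of all 3 WT RCS vehicle libraries. These intervals cover counting error only, since the reads carry no molecular identifiers.

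FGF18 left Sox9 without a detectable change in WT RCS. The log2 fold change was -0.08 (SE 0.12, 95% interval -0.33 to 0.16, FDR = 0.647, edgeR quasi-likelihood test, n = 3 per group), which is a 0.943-fold level with an interval of 0.797 to 1.12. The interval thus holds no fall of Sox9 below 0.797-fold and no rise above 1.12-fold. Across the genome this was an active comparison, with 1898 genes (25.7% of those tested) past an FDR of 0.05, 950 of them higher and 948 lower with FGF18. The fold change of Sox9 was smaller in size than that of 87.7% of the tested genes, and all called genes had a larger one. The exact two-sided permutation test of the Sox9 libraries gave p = 0.4, where 3 libraries against 3 allow no p below 0.1. With library totals in place of TMM scaling, Sox9 was at 1444 to 1594 CPM with vehicle and at 1240 to 1401 CPM with FGF18. These ranges do not overlap, as in 23.2% of the tested genes in this direction on that scale. The log2 fold change was then -0.17 (FDR = 0.3245, edgeR), and the permutation p was 0.1, the smallest possible.

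In FGFR3/4KO RCS, FGF18 gave Sox9 a log2 fold change of 0.14 (SE 0.12, 95% interval -0.10 to 0.38, FDR = 0.848, edgeR). This interval runs from a 0.931-fold to a 1.30-fold level, and the exact two-sided permutation test gave p = 0.3 (smallest possible 0.1). No gene of the 7378 was called in this comparison (0 genes, 0%, edgeR), 478 had an unadjusted p under 0.05, and DESeq2 called 0. The upward value of Sox9 rested in good part on FGFR3/4KO RCS vehicle replicate 2, since without that library it was 0.05 (FDR = 0.975, edgeR), and without vehicle replicate 3 it was 0.24 (FDR = 0.729, edgeR). Whether FGF18 acted on Sox9 differently in the 2 genotypes was tested by the interaction of FGF18 and genotype. It was 0.22 on the log2 scale (SE 0.17, 95% interval -0.12 to 0.57, FDR = 0.458, edgeR), so a difference between genotypes in the Sox9 response was not detected. The interaction passed for 802 genes, 10.9% of those tested, with 436 positive (5.91%) and 366 negative (4.96%).

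Sox9 differed between the genotypes. Under FGF18, Sox9 was 1.45-fold higher in FGFR3/4KO RCS than in WT RCS (95% interval 1.23 to 1.72), a log2 fold change of 0.54 (SE 0.12, FDR = 0.000771, edgeR). All 3 FGFR3/4KO libraries were above all 3 WT libraries, and 20.5% of the tested genes showed that separation in the same direction. In the exact two-sided permutation test p was 0.1, the smallest that 3 libraries against 3 can give. Differences between the genotypes were common in this comparison, since 2500 genes (33.9%) were called, 1247 of them higher in FGFR3/4KO RCS (16.9%). In size, the difference of Sox9 was exceeded by 40.3% of all tested genes and by 86.7% of the called ones. It was thus a modest difference of an abundant gene, seen with a small error.

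With vehicle, Sox9 was 1.24-fold higher in FGFR3/4KO RCS (95% interval 1.05 to 1.47), and this did not pass the threshold. The log2 fold change was 0.31 (SE 0.12, unadjusted p = 0.0135, FDR = 0.0771, edgeR), and 2 of the 3 FGFR3/4KO libraries were above all 3 WT libraries. In the exact two-sided permutation test p was 0.2 (smallest possible 0.1). The call turned on single libraries and on the model. Without FGFR3/4KO RCS vehicle replicate 2 the log2 fold change of Sox9 was 0.42 (FDR = 0.0266, edgeR) and without vehicle replicate 3 it was 0.23 (FDR = 0.302, edgeR). Leaving out FGFR3/4KO RCS FGF18 replicate 1, a library of neither group, also moved it just past the threshold (FDR = 0.0472, edgeR). With only the compared groups in the model it passed at 0.31 (FDR = 0.0120, edgeR), and with library totals it was 0.20 (FDR = 0.270, edgeR, permutation p = 0.4). The background was 1038 called genes (14.1%), of which 590 were higher in FGFR3/4KO RCS. That count itself fell to 687 without FGFR3/4KO RCS vehicle replicate 1 and to 679 without vehicle replicate 3. The genotype differences of Sox9 with vehicle and with FGF18 differ by the interaction given above, which did not pass, so a larger difference under FGF18 is not shown.

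Averaged over both treatments, Sox9 was 1.34-fold higher in FGFR3/4KO RCS (95% interval 1.19 to 1.51). The log2 fold change was 0.43 (SE 0.08, FDR = 0.000237, edgeR), beside a median of -0.01 over all tested genes. When genotype labels were exchanged only within a treatment, the exact two-sided permutation test gave p = 0.01, where the smallest possible is 0.005. With library totals this exact permutation test gave p = 0.02 for Sox9, at a log2 difference of 0.34. Of all tested genes, 2559 (34.7%) were called in this average, 1322 of them higher (17.9%), and 10.1% had a smaller p than Sox9. The combination that Sox9 showed, higher in FGFR3/4KO RCS under FGF18 with FGF18 called in neither genotype, was shared by 642 genes, or 8.7% of those tested.

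The libraries of the genotypes also differed in how many of their reads were counted on genes. This share was 13.5 ± 1.003% in WT RCS vehicle, 13.9 ± 0.541% in WT RCS FGF18, 17.8 ± 0.795% in FGFR3/4KO RCS vehicle and 18.3 ± 0.628% in FGFR3/4KO RCS FGF18 (SD, n = 3 each). Most other reads had a mapping quality too low to be counted, 78.5 ± 1.20% in WT RCS vehicle against 73.3 ± 1.14% in FGFR3/4KO RCS vehicle (SD, n = 3 each). After seeing the data, Sox9 was also taken per 1e+06 of all reads in the library, where its genotype difference averaged over treatments was 0.73 on the log2 scale. That scale raises every gene in FGFR3/4KO RCS by the same 0.31, so the larger value adds no support for a difference of Sox9.

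**Figure D2:**
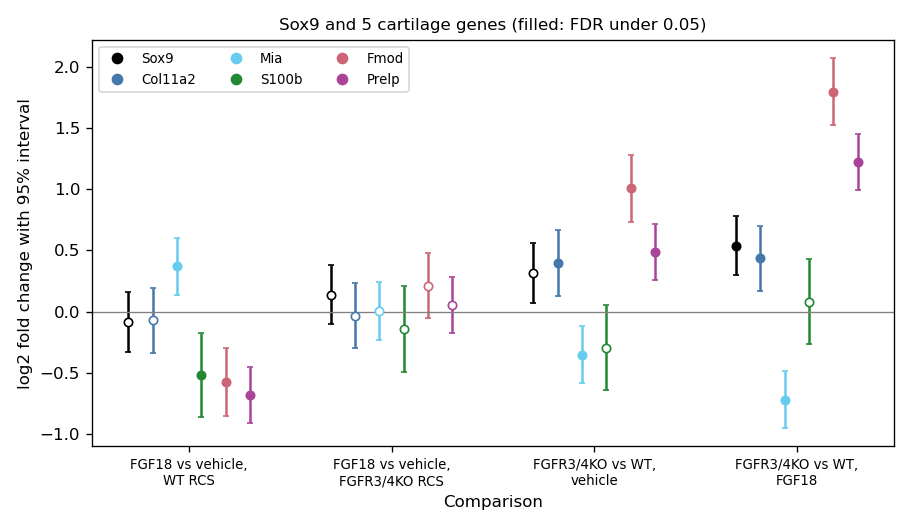
Log2 fold changes (y axis) of Sox9 and 5 cartilage genes in 4 comparisons (x axis), with 95% intervals, n = 3 libraries per group. Filled points passed an FDR of 0.05 and open points did not. Sox9 lies near 0 for FGF18 in WT RCS, where Fmod and Prelp lie at -0.57 and -0.68, and at 0.54 for FGFR3/4KO against WT RCS under FGF18.

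Genes known as part of the SOX9 programme in cartilage were read beside Sox9. Of 19 such genes listed, 5 could be named here and 4 of these were tested, Col11a2, Mia, S100b and Chad. The fifth, Epyc, a small proteoglycan of cartilage, had 64 reads over all libraries. Chad passed the filter on low counts only through WT RCS libraries, and needed those with FGF18, so no median or genotype count of the list is given. With FGF18 in WT RCS, Mia was called higher and S100b lower, beside 12.9% and 12.8% of all tested genes. In FGFR3/4KO against WT RCS, Col11a2 was called higher and Mia lower both with vehicle (8% and 6.07% of all tested genes) and with FGF18 (16.9% and 17%). Each genotype comparison shares a group of libraries with each FGF18 comparison, so these are not independent of each other.

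Col11a2 encodes a chain of type XI collagen, a fibril collagen of cartilage, and had the pattern nearest to that of Sox9 among these 4. It was at 803, 602 and 697 CPM in WT RCS vehicle and at 631, 679 and 692 CPM in WT RCS FGF18. Its FGFR3/4KO RCS values were 898, 1042 and 838 CPM (vehicle) and 1023, 847 and 841 CPM (FGF18). As with Sox9, FGF18 gave no called change in either genotype. All 6 FGFR3/4KO libraries lay above all 6 WT libraries in Col11a2, a separation that 6.07% of the tested genes showed in this direction and that Sox9, with 5 of 6, did not. The log2 fold change between genotypes was 0.44 under FGF18 (SE 0.13, FDR = 0.01002, edgeR) and 0.40 with vehicle (SE 0.13, FDR = 0.0414, edgeR), and beside Sox9 these are 0.54 and 0.31. The vehicle call of Col11a2 was lost in 8 of 20 other analyses (FDR 0.05003 to 0.211), 5 of them without WT RCS vehicle replicate 2 or 3, WT RCS FGF18 replicate 2, or FGFR3/4KO RCS vehicle replicate 1 or 2.

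Mia encodes a small secreted protein of cartilage, and it went the other way from Sox9 between the genotypes. Mia was at 2014, 1766 and 1849 CPM in WT RCS vehicle and at 2533, 2394 and 2348 CPM in WT RCS FGF18. The FGFR3/4KO RCS values of Mia were 1486, 1493 and 1438 CPM (vehicle) and 1653, 1406 and 1373 CPM (FGF18). The 6 FGFR3/4KO libraries were thus all below the 6 WT libraries, as in 5% of the tested genes, while 5 of the 6 were above all WT libraries in Sox9. Under FGF18 Mia had a log2 fold change of -0.72 in FGFR3/4KO against WT RCS (SE 0.11, FDR = 1.61e-05, edgeR), which held in all 20 other analyses. With vehicle it was -0.35 (FDR = 0.0380, edgeR), a call lost in 9 of 20 other analyses (FDR 0.0525 to 0.166), among them those without any 1 vehicle library of either genotype or without WT RCS FGF18 replicate 2. Mia rose with FGF18 in WT RCS by 0.37 (SE 0.11, FDR = 0.0158, edgeR), where Sox9 did not, and this call was lost without WT RCS vehicle replicate 2 or 3 or WT RCS FGF18 replicate 2 (FDR 0.0536 to 0.0840). The interaction of Mia did not pass (-0.37, FDR = 0.159, edgeR).

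S100b, a calcium-binding protein whose gene SOX9 and its partners activate in chondrocytes, fell with FGF18 in WT RCS by 0.52 on the log2 scale (SE 0.17, FDR = 0.0237, edgeR). It was at 1330, 1352 and 1283 CPM in WT RCS vehicle and at 1012, 1129 and 623 CPM in WT RCS FGF18, so that the groups did not overlap (19.5% of tested genes were lower in this way) and FGF18 replicate 3 was the lowest. The call was lost without that library or without any 1 of the 3 vehicle libraries (FDR 0.0575 to 0.130). Over the 20 other analyses the log2 fold change of S100b ran from -0.70 to -0.32. Unlike Sox9, S100b was called in neither genotype comparison, with log2 fold changes of -0.29 (vehicle, FDR = 0.271, edgeR) and 0.08 (FGF18, FDR = 0.743, edgeR). Chad encodes chondroadherin, a matrix protein that binds chondrocytes, and was scarce beside Sox9, at 7.995 to 19.7 CPM in WT RCS and 1.10 to 11.9 CPM in FGFR3/4KO RCS. It was lower in FGFR3/4KO RCS under FGF18 (log2 fold change -1.42, SE 0.42, FDR = 0.00968, edgeR), a direction that the filter favoured, and the call was lost without FGFR3/4KO RCS FGF18 replicate 2 (FDR = 0.0828). With vehicle Chad was at 1.10 to 3.06 CPM in FGFR3/4KO RCS, under the floor of 3 reads in each library, so no fold change is given there. Its vehicle call, in the direction that the filter favoured (FDR = 0.0251, edgeR), was lost with DESeq2 and without WT RCS vehicle replicate 1 or FGFR3/4KO RCS vehicle replicate 1 or 3 (FDR 0.0540 to 0.169).

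Of 17 other matrix genes of cartilage listed, 11 could be named and 8 were tested. With FGF18 in WT RCS 2 were called higher and 2 lower (background 25.7%), with a median log2 fold change of -0.29 against 0.02 over all tested genes. Optc, a small proteoglycan first found in the eye, passed the filter only with the help of the FGFR3/4KO RCS libraries, so no genotype count or median of the list is given. The list itself was not tested. Its member Matn2, matrilin 2, a matrix adaptor protein, was called in no comparison, with log2 fold changes of -0.75 with FGF18 in WT RCS (FDR = 0.134, edgeR) and -0.46 between the genotypes with vehicle, where Sox9 was at 0.31. The other 7 are given next.

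Fmod, fibromodulin, a small leucine-rich proteoglycan that binds collagen fibrils, was at 433, 487 and 420 CPM in WT RCS vehicle and at 290, 269 and 342 CPM in WT RCS FGF18. The FGFR3/4KO RCS values of Fmod were 933, 940 and 822 CPM (vehicle) and 1186, 923 and 1012 CPM (FGF18). Fmod and Sox9 were thus both highest in FGFR3/4KO RCS. The WT groups of Fmod did not overlap, as in 19.5% of the tested genes in this direction, while those of Sox9 overlapped. Fmod fell with FGF18 in WT RCS by 0.57 on the log2 scale (SE 0.13, FDR = 0.00206, edgeR), and its difference between genotypes under FGF18 was 1.79 (SE 0.13, FDR = 7.01e-11, edgeR), against 0.54 for Sox9. Prelp, a related proteoglycan that anchors basement membranes and cartilage matrix, fell with FGF18 in WT RCS by 0.68 (SE 0.11, FDR = 3.74e-05, edgeR), from 2169 ± 121 to 1353 ± 89.5 CPM (SD, n = 3). Prelp means in FGFR3/4KO RCS were 3042 ± 131 CPM (vehicle) and 3159 ± 171 CPM (FGF18, SD, n = 3 each). The interaction passed for both, 0.79 for Fmod (FDR = 0.00505, edgeR) and 0.74 for Prelp (FDR = 0.00205, edgeR), while that of Sox9 was 0.22 and did not. All of these calls of Fmod and Prelp held in every other analysis tried.

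Col6a2, a chain of type VI collagen around chondrocytes, and Timp2, an inhibitor of matrix metalloproteinases, rose with FGF18 in WT RCS, by 1.88 and 0.86 on the log2 scale (FDR = 6.71e-10 and 2.62e-05, edgeR). The value of Sox9 in that comparison was -0.08. Between the genotypes both were higher in FGFR3/4KO RCS with vehicle (1.21 and 0.80, FDR = 5.63e-06 and 0.000196, edgeR). Under FGF18, where Sox9 was higher, Col6a2 was lower (-0.50, FDR = 0.00900, edgeR) and Timp2 was at -0.24 (FDR = 0.173, edgeR). That call of Col6a2 was lost without WT RCS FGF18 replicate 3 or FGFR3/4KO RCS FGF18 replicate 2 (FDR 0.0737 to 0.131). Mgp, matrix Gla protein, an inhibitor of calcification, was among the genes above Sox9 in CPM and was called in no comparison (log2 fold changes between -0.12 and 0.30). Of the other tested members, Optc and Timp3 were higher in FGFR3/4KO RCS under FGF18 (1.93 and 1.21, FDR = 0.000102 and 0.00397, edgeR), both from low levels in WT RCS, and for Optc the filter favoured this direction.

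Regulators of SOX9 protein were listed as 14 genes, of which 8 could be named and 5 were tested. None was called with FGF18 in WT RCS (0 by edgeR, beside 25.7% of all genes, 1 at an unadjusted p under 0.05 and 0 by DESeq2), as was the case for Sox9. Crebbp, a histone acetyltransferase that SOX9 binds as a coactivator, had log2 fold changes between genotypes of 0.23 with vehicle and 0.06 with FGF18 (FDR = 0.340 and 0.767, edgeR). Prkaca, the catalytic subunit of protein kinase A, which phosphorylates SOX9, had values of -0.01 and -0.01 (FDR = 0.970 and 0.954, edgeR). Neither was called, and the interval of Crebbp with vehicle, -0.08 to 0.54, holds the Sox9 value of 0.31. Med12, a Mediator subunit, was lower in FGFR3/4KO RCS under FGF18 by -0.78 (FDR = 0.0147, edgeR), while Trpv4, a calcium channel of chondrocytes, was higher by 0.41 (FDR = 0.0212, edgeR). Both calls depended on single libraries, that of Med12 on WT RCS FGF18 replicate 2 and FGFR3/4KO RCS FGF18 replicate 3 (FDR 0.0545 to 0.0712 in the analyses that lost it, DESeq2 and no filter on low counts among them), and that of Trpv4 on WT RCS FGF18 replicate 1 (FDR = 0.0997 without it). The log2 fold changes ran from -0.83 to -0.69 for Med12 and from 0.33 to 0.52 for Trpv4 over the other analyses. Averaged over treatments, as for Sox9, both were called in the main and in all 20 other analyses (-0.77 and 0.40, FDR = 0.00139 and 0.002895, edgeR), and Med12 with vehicle was at -0.76 (FDR = 0.0501, edgeR). Prkg2, cGMP-dependent protein kinase II, which acts on SOX9 in the growth plate, was higher with vehicle (0.60, FDR = 0.0134, edgeR) and at 0.06 under FGF18 (FDR = 0.809, edgeR), while its interaction, -0.55, did not pass (FDR = 0.130, edgeR), so a difference between treatments is not shown. The vehicle call was lost without WT RCS vehicle replicate 3 or FGFR3/4KO RCS vehicle replicate 2 and with library totals (FDR 0.0502 to 0.0568). The average of Prkg2 over treatments was 0.33 (FDR = 0.0243, edgeR), lost without FGFR3/4KO RCS FGF18 replicate 2 and with library totals (FDR 0.0720 to 0.184).

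The canonical Wnt pathway opposes SOX9 in chondrocytes, and 4 of its 13 listed genes were tested. Lrp6, Gsk3b and Fzd9 were called in no comparison of the main analysis. The interaction of Fzd9 (0.87, FDR = 0.0651, edgeR) passed in 5 of 19 other analyses (FDR 0.0108 to 0.176 over the 19), and its FGF18 effect in WT RCS in 1 of 20. The genotype difference under FGF18 passed in 2 of 20 for Fzd9 and in 1 of 20 for Gsk3b. Lgr4, a receptor for R-spondins that strengthens Wnt signals, was lower in FGFR3/4KO RCS under FGF18, as were 17% of all tested genes (log2 fold change -1.74, SE 0.39, FDR = 0.00108, edgeR), at 16.02 to 41.8 CPM in WT RCS FGF18 and 5.27 to 10.6 CPM in FGFR3/4KO RCS FGF18. Lgr4 passed the filter only through WT RCS libraries, so the filter favoured this direction, and it is not set against Sox9. Of 16 genes of hypertrophy and bone, a programme that SOX9 holds back, 1 was tested. This was Smpd3, a sphingomyelinase needed for mineralization, which was higher in FGFR3/4KO RCS. Its log2 fold change was 1.77 with vehicle, where Sox9 did not pass, and 2.19 with FGF18, where Sox9 did (FDR = 3.68e-10 and 9.07e-13, edgeR). Of all tested genes, 8% were called higher with vehicle and 16.9% with FGF18. As 1 gene of the 16 listed, Smpd3 does not stand for the programme. Unlike Sox9, Smpd3 was called lower with FGF18 in WT RCS, as were 12.8% of all tested genes (-0.43, FDR = 0.0193, edgeR). This call was lost without any 1 WT RCS vehicle library or without WT RCS FGF18 replicate 2 or 3 (FDR 0.0512 to 0.0656). None of the 10 other Sox genes listed could be named here, and they were not analysed here.

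Adaptors, feedback regulators and response genes of the FGF and MAPK pathway were read beside Sox9. They served as a check on the FGF18 treatment. Of 22 such genes 6 were tested. Dusp1 and Spred1 passed the filter only with the help of the WT RCS FGF18 libraries, so no median or count of the list is given for WT RCS. Of the other 4, Phlda1 and Etv5 were called there and Frs2 and Myc were not (-0.07 and -0.34, FDR = 0.790 and 0.634, edgeR), so the check rests on some of the members. Phlda1, a feedback gene of growth factor signalling, was at 141, 118 and 136 CPM in WT RCS vehicle and at 1185, 1167 and 1221 CPM in WT RCS FGF18. The FGFR3/4KO RCS values were 121, 105 and 122 CPM (vehicle) and 166, 120 and 190 CPM (FGF18). The FGF18 libraries of WT RCS thus stood apart in Phlda1, as in 20.2% of the tested genes in this direction. They did not in Sox9. The log2 fold change in WT RCS was 3.18 for Phlda1 (SE 0.15, FDR = 4.56e-15, edgeR) and 2.64 for Etv5, an ETS factor downstream of FGF receptors (SE 0.29, FDR = 8.82e-08, edgeR), against -0.08 for Sox9. In FGFR3/4KO RCS none of the 6 was called, as for all tested genes (0%, 0 by edgeR and 0 by DESeq2), and 2 had an unadjusted p under 0.05, Etv5 at 0.78 and Phlda1 at 0.43. Etv5 was also higher in FGFR3/4KO RCS with vehicle (2.33, SE 0.31, FDR = 6.80e-06, edgeR), a comparison in which Sox9 was at 0.31.

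The genes whose pattern was most like that of Sox9 were taken by Pearson's r of log2 CPM over the 12 libraries, among 1055 tested genes with a name and a mean of at least 20 CPM. The 12 libraries fall into 4 groups, so r mostly follows the group means. The median r over these genes was 0.04, with quartiles of -0.395 and 0.489. The 5 most like Sox9 were St6gal1 (r = 0.951), Eif4a2 (0.920), Tfrc (0.917), Maged1 (0.898) and Snx4 (0.895). Among all tested genes they ranked 2, 8, 11, 20 and 22, since genes with no name or a lower mean were passed over. St6gal1, a sialyltransferase of the Golgi, was at 54.1, 44.0 and 45.6 CPM in WT RCS FGF18 and 108, 136 and 124 CPM in FGFR3/4KO RCS FGF18. With vehicle it was at 65.2, 72.1 and 65.0 CPM in WT RCS and 106, 73.7 and 116 CPM in FGFR3/4KO RCS. As for Sox9, FGFR3/4KO RCS vehicle replicate 2 was the lowest of the FGFR3/4KO libraries in St6gal1, and the same library was lowest in Eif4a2, an RNA helicase of translation initiation.

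After the group means were subtracted, r with Sox9 was 0.813 for St6gal1, 0.864 for Eif4a2, 0.621 for Tfrc, the transferrin receptor, 0.407 for Maged1 and 0.625 for Snx4. The 5 most opposite to Sox9 were Ttc1 (r = -0.936), Atp6v1a, a subunit of the vacuolar proton pump (-0.908), Plod3, a collagen lysyl hydroxylase (-0.896), Pop5 (-0.887) and Rabep1 (-0.882). In this order their r after subtraction was -0.867, -0.603, -0.568, -0.716 and -0.375. Both sets were picked by r over these same libraries, and no background over all genes is given for the r after subtraction. A link with Sox9 beyond the groups was therefore not tested. Between FGFR3/4KO and WT RCS under FGF18, the 5 like genes were all called higher and the 5 opposite ones all called lower (backgrounds 16.9% and 17%), which follows from how they were found. Ttc1, the most opposite to Sox9 among the 1055 genes, lost this call in 5 of 20 other analyses (FDR 0.0509 to 0.105), 3 of them without WT RCS FGF18 replicate 2 or FGFR3/4KO RCS FGF18 replicate 2 or 3. Col11a2 had an r of 0.623 with Sox9 and was not among them.

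**Figure D3:**
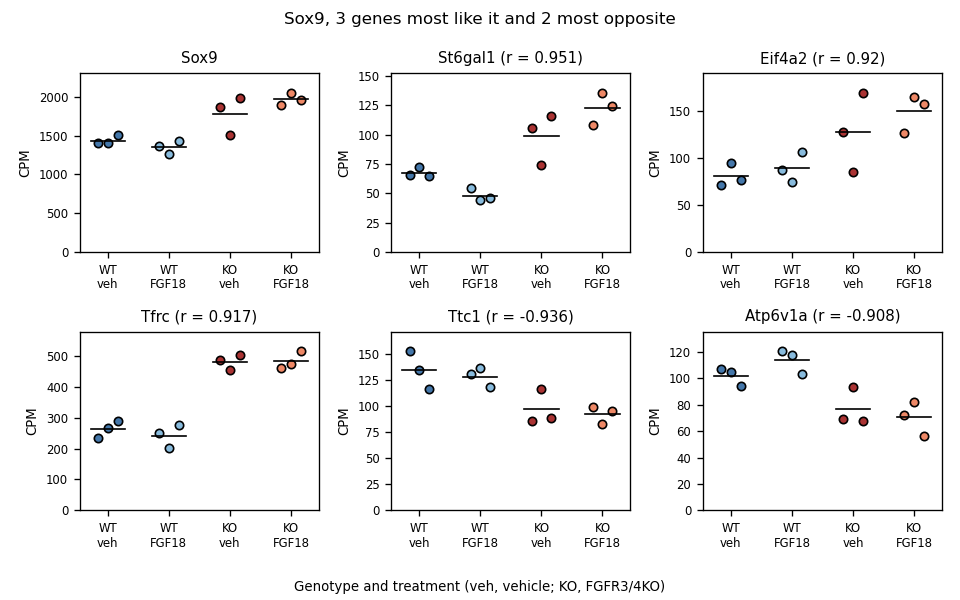
CPM (TMM-normalized, y axes) of Sox9, of 3 genes most like it and of 2 most opposite among the 1055 named genes, over the 12 libraries, by genotype and treatment (x axes). Points are libraries, lines are group means (n = 3), and r is Pearson's r of log2 CPM with Sox9. St6gal1, Eif4a2 and Tfrc are higher in FGFR3/4KO RCS with r from 0.917 to 0.951, and Ttc1 and Atp6v1a are lower with r of -0.936 and -0.908.

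The chondrocyte label was checked against markers. Of 14 chondrocyte markers, Sox9 among them, 8 could be named, and 7 of these passed the filter on low counts. The summed level of the 8, Sox9 included, was 6779 to 9962 CPM per library. By group the sum was 7818 to 8182 CPM in WT RCS vehicle, 6779 to 7320 CPM in WT RCS FGF18, 9021 to 9450 CPM in FGFR3/4KO RCS vehicle and 9276 to 9962 CPM in FGFR3/4KO RCS FGF18. Since Sox9 is part of this sum, the sum is not independent of it. Prelp, another member, had group means in the same order, from 1353 CPM in WT RCS FGF18 to 3159 CPM in FGFR3/4KO RCS FGF18. The tested markers also differed in direction, since under FGF18 Sox9, Col11a2, Fmod and Prelp were called higher in FGFR3/4KO RCS (16.9% of all tested genes) and Mia lower (17%). Of the other tested markers, S100b was not called, and Chad was called lower in the direction that the filter favoured.

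Markers of other cells were low beside Sox9. Of 6 fibroblast markers, 4 could be named and summed to 18.5 to 50.5 CPM. Beside Thy1 these were Col1a1, Pdgfra and Pi16, which were not tested and had at most 18, 9 and 7 reads in a library. Of 5 endothelial markers only Flt1 could be named, with 0 CPM in 7 libraries and at most 3.70 CPM. Of 5 leukocyte markers, Cd80 and Cytip could be named and summed to 2.83 to 14.2 CPM, and the 6 markers of Schwann cells and neurons summed to 17.7 to 76.5 CPM. Under FGF18, where the genotypes differed in Sox9, the fibroblast sum was 18.5 to 25.8 CPM in FGFR3/4KO RCS and 28.7 to 50.5 CPM in WT RCS, the leukocyte sum 6.45 to 7.09 and 12.3 to 13.1 CPM, and the neural sum 33.7 to 49.7 and 37.0 to 76.5 CPM. With vehicle, where Sox9 did not pass, the fibroblast sum was 22.7 to 30.6 CPM in FGFR3/4KO RCS and 20.3 to 24.5 CPM in WT RCS, and the neural sum 31.2 to 46.0 and 17.7 to 28.985 CPM. The leukocyte sum with vehicle was 2.83 to 14.2 CPM in FGFR3/4KO RCS, which spanned the 6.9955 to 8.70 CPM of WT RCS. In WT RCS all 4 sums were higher with FGF18 than with vehicle without overlap, while Sox9 had no called change. Of single tested genes 20.2% were higher in this way, which is no background for sums of mostly untested members. For leukocyte markers the sum in WT RCS was 12.3 to 13.1 CPM with FGF18 against 6.9955 to 8.70 CPM with vehicle, and Flt1 was at 1.91 to 3.70 against 0 CPM. These ranges rest on few reads, since Flt1 had at most 4 in a library and Cd80 and Cytip at most 10 and 8. Of these markers of other cells only Thy1 and Syt1 passed the filter, and neither was called in any comparison. Thy1 ran against the fibroblast sum. In WT RCS it was at 14.96 to 18.99 CPM with vehicle and 8.625 to 13.94 CPM with FGF18 (log2 fold change -0.57, FDR = 0.282, edgeR). Between the genotypes Thy1 was at 0.25 under FGF18 and -0.28 with vehicle (FDR = 0.643 and 0.693, edgeR). Syt1 went with the neural sum in WT RCS (0.92, FDR = 0.0926, edgeR).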

How the data were processed

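Each QuantSeq 3′ library started from 100 ng of total RNA. The authors used Trim Galore for trimming, STAR for alignment to rn6 and htseq-count for counting, and deposited raw read counts per gene. The methods name Gencode v19, while identifiers are Ensembl rat genes. Tool versions are not given in the sources used here. Uncounted reads stayed out of library sizes. They were 81.2 to 87.5% of all reads, mostly of low mapping quality.

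Counts were analysed with edgeR 4.0.16 in R 4.3.3. The filterByExpr function (minimum count 10, minimum total 15) kept 7378 genes. All 12 libraries entered 1 quasi-likelihood model with a mean per group, with TMM scaling, Benjamini-Hochberg adjustment over all tested genes and a threshold of 0.05. The SE was taken as the size of the log2 fold change over the root of F. The test was checked on simulated counts. Alternatives included DESeq2 1.42.0, other scalings and filters, and each library left out.

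Names came from a list that pairs 1998 identifiers with symbols (1418 tested). The rule for named genes took Sox9, tested members of the lists, and the 5 genes most like and 5 most opposite to Sox9. Members and lists were chosen with earlier results of these data known. A floor of 3 reads was 2.46 to 8.50 CPM. Replicates differed by more than counting noise (chi-square 1.64 to 6.49 times its degrees of freedom).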

Additional observations from a re-analysis of the deposited data

Results flagged for a closer look

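Sox9 met none of the criteria for a closer look, since its interaction of FGF18 and genotype (0.22 on the log2 scale, FDR = 0.458, edgeR) did not pass. Among the cartilage and FGF pathway genes read beside Sox9, 6 responded to FGF18 differently in the 2 genotypes by that test. The interaction was positive for Fmod (0.79) and Prelp (0.74), which fell with FGF18 in WT RCS. It was negative for Col6a2 (-1.71), Timp2 (-1.04), Etv5 (-1.86) and Phlda1 (-2.74), which rose with FGF18 in WT RCS (FDR = 4.25e-06, 0.000556, 0.00126 and 1.79e-09, edgeR). The interaction passed for 10.9% of all tested genes, and each of these 6 also passed in all 19 other analyses run.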

How the results depend on the processing

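The Sox9 difference between genotypes under FGF18 passed in all 20 other analyses (log2 fold change 0.49 to 0.61), and so did the average over treatments (19 of 19, 0.34 to 0.50, and 0.40 in 1 analysis added after seeing the data, library totals without FGFR3/4KO RCS vehicle replicate 2). Sox9 with FGF18 passed in none of 20 in either genotype (-0.17 to -0.05 in WT RCS, 0.05 to 0.24 in FGFR3/4KO RCS), and its interaction in none of 19 (0.16 to 0.34). With vehicle, the genotype difference of Sox9 (FDR = 0.0771, edgeR) was 0.31 with only the compared groups in the model (FDR = 0.0120) and 0.23 to 0.42 with each library left out, passing without FGFR3/4KO RCS vehicle replicate 2 or FGFR3/4KO RCS FGF18 replicate 1. The cause was not tested. Over its other analyses the FDR ran from 0.0120 to 0.302.

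The count of 0 genes with FGF18 in FGFR3/4KO RCS became 3 with the likelihood-ratio test, 20 with no filter, 1 with at least 1 CPM in 3 libraries, 2 with only the compared groups, and 0 to 1 with each library left out. The 1038 genes between genotypes with vehicle became 679 to 1211 with each library left out. With library totals in place of TMM, the median log2 fold change of all genes in that comparison moved from -0.01 to -0.13, that of Sox9 from 0.31 to 0.20, and the share of calls that were higher from 56.8% to 38.2%, and in the average over treatments that share moved from 51.7% to 39.3%. Sox9 stayed above that shifted median. The 950 higher and 948 lower genes with FGF18 in WT RCS became 772 and 1135 with library totals, and the 436 and 366 of the interaction 501 and 314.

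The replicate numbers did not pair libraries (mean r of deviations from group means -0.03 for same numbers, 0.01 for different ones). With a replicate block, Sox9 changed no call, at 0.54 under FGF18 (FDR = 0.001515) and 0.31 with vehicle (FDR = 0.107), and the calls were 914 with vehicle. No called value changed sign in any analysis. Among other named genes, 91 of 4750 values lost a call and 54 gained it. The counting error of Sox9 was largest in FGFR3/4KO RCS vehicle, where replicate 2 had 531 Sox9 reads. Its coefficient of variation there was 3.19%, beside 14.1% between the replicates.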
